A study of Homo sapiens with 6 samples.

Results

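Telomerase holoenzyme partners and shelterin genes were examined as a group of 10 genes, chosen by name: DKC1, NHP2, NOP10 and GAR1, RUVBL1 and RUVBL2, PTGES3, and TERF2IP, TERF1 and ACD. Of the 10072 genes in the count table, 9 were of this group, TERF2IP had 0 rows, and 5 had enough counts to be tested. The counts came from Calu-6 cells, a long-established human lung cancer line, transfected for 48 h with 10 nM of either a non-silencing siRNA (siControl) or one (siDelta2-4) directed at the TERT variant Delta 2-4, in which exon 1 is joined to exon 5, with 3 libraries in each group. The comparison asked whether transcripts of the proteins that assemble and recruit telomerase differed when this TERT variant was targeted. Calu-6 is 1 line, its genotype was labelled WT, and the column names carried the word Empty, which the study used for cells with an empty Flag-V5 vector. For this sequencing the study's methods describe stable Calu-6 lines carrying either that empty vector or the tagged variant. No column used here named the tagged variant. How the label WT relates to the empty vector is not given.

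Telomerase is a ribonucleoprotein that adds telomeric repeats to chromosome ends and is active in most cancers. Its catalytic subunit is TERT and its template lies in the RNA TERC, whose H/ACA domain is bound by dyskerin (encoded by DKC1), NHP2, NOP10 and GAR1, the same proteins that bind H/ACA small nucleolar RNAs and guide pseudouridylation of ribosomal RNA. The ATPases RUVBL1 and RUVBL2 (pontin and reptin) and the HSP90 cochaperone p23 (encoded by PTGES3) act in its assembly. Shelterin coats the telomere: TERF1 (TRF1) binds double-stranded repeats, TERF2IP (RAP1) binds TERF2, and ACD (TPP1) joins POT1 and recruits telomerase.

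None of the 5 tested genes (NHP2, NOP10, RUVBL1, RUVBL2 and PTGES3) passed the test between siControl and siDelta2-4, against 13.0% of all genes tested. The H/ACA proteins were represented very unequally: NHP2 had 3077 counts over the 6 libraries and NOP10 had 1153, whereas DKC1 had 21 and GAR1 had 12. PTGES3 had 480 counts, RUVBL1 had 179 and RUVBL2 had 90. TERF1 had 4 counts and ACD had 5. All counts of these 9 genes lay on annotated transcripts.

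The siControl libraries held 1037468 to 1106413 counts and the siDelta2-4 libraries held 1070009 to 1309241. Within each group the libraries are called A, B and C from the highest total to the lowest, because the labels gave no number that could be matched to the columns, and values are given in that order. Gene-level counts were tested with the quasi-likelihood test of edgeR, and genes were called at a Benjamini-Hochberg adjusted p under 0.1 over the 3888 genes tested. That fit called 504 genes, 272 higher and 232 lower in siDelta2-4, and 900 genes had an unadjusted p under 0.05. With the scaling alone changed, the split was 249 higher and 265 lower on DESeq2 size factors and 361 and 152 on library totals alone. It was 194 and 283 with a trend on transcript length removed, and 78 and 201 with the DESeq2 Wald test, which changes the test as well as the scaling. Every model in the table had a count in siDelta2-4, which was not so for siControl. With the same count rule required of both groups, the split was 246 and 232. TERT and TERC had 0 rows, so the knockdown was not analysed here. Among epithelial markers, KRT8 had 824 counts, KRT18 had 1124, EPCAM had 13, KRT19 had 1 and CDH1 had 0 rows. Of 8 markers of blood cells, fibroblasts and endothelium, 7 had 0 rows and CD68 had 12 counts. The study called the libraries biological replicates, and the labels do not say whether they came from separate cultures, so p-values measure the spread between these libraries. In bulk RNA, fewer cells and less RNA per cell cannot be told apart.

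NHP2, which encodes an RNA-binding core protein of the H/ACA particle, lies on chromosome 5 of GRCh38 (chr5:178149463-178153894, minus strand). siControl A, B and C had 476.75, 462.22 and 459.76 CPM, the gene's read count scaled to a common, TMM-adjusted library total. siDelta2-4 A, B and C had 426.64, 458.27 and 473.8 CPM. The groups overlapped, and the lowest and second-lowest values were both in siDelta2-4. NHP2 averaged 466 ± 9.19 CPM in siControl against 453 ± 24.0 in siDelta2-4 (SD, n = 3 per group). The log2 fold change was -0.04 (SE 0.089, edgeR adjusted p = 0.823), and its 95% interval ran from 0.855-fold to 1.10-fold. NHP2 was the most precisely measured gene of the group.

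NOP10, the smallest H/ACA protein, lies at chr15:34339159-34343180 on the minus strand. NOP10 had 187.19, 155.35 and 133.14 CPM in siControl A, B and C. In siDelta2-4 it had 180.33, 179.57 and 191.02 CPM. The siDelta2-4 libraries lay close together, and siControl A lay within their range. NOP10 averaged 159 ± 27.2 CPM in siControl against 184 ± 6.40 in siDelta2-4 (SD, n = 3 per group). The log2 fold change of 0.21 (SE 0.121) did not pass the test (edgeR adjusted p = 0.302), with a 95% interval from 0.975-fold to 1.37-fold. With a trend on transcript length removed from each library, NOP10 was called higher in siDelta2-4 (log2 fold change 0.33, edgeR adjusted p = 0.0683, range over the alternatives 0.0683 to 0.683). Its log2 fold change was above 0 under all 16 alternatives, and among these it was lowest, at 0.08, without siControl C. The alternatives reuse the same libraries, and a stricter threshold alone leaves the value unchanged, so they are not separate evidence. NOP10, with a mean counted length of 508 nt, was the shortest gene of the group, and the Spearman correlation of transcript length with each library's deviation across genes was -0.318 and -0.326 in siControl A and B and 0.123 to 0.362 in the other 4. The part of length in the NOP10 values was measured only through that alternative.

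NOP10 and NHP2 bind each other in the H/ACA particle, so their counts were also compared as a ratio within each library. NOP10 counts per NHP2 count were 0.393, 0.336 and 0.29 in siControl and 0.423, 0.392 and 0.403 in siDelta2-4. The ranges overlapped only at their edges, 0.393 in siControl and 0.392 in siDelta2-4. The means were 0.340 ± 0.0516 and 0.406 ± 0.0157 (SD over 3 libraries each, two-sided exact permutation p = 0.2, 0.3 after adjustment over the 3 ratios compared). With 3 libraries against 3, the exact test cannot give a p below 0.1.

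DKC1 encodes dyskerin, the pseudouridine synthase of the H/ACA particle, and lies on chromosome X (chrX:154762742-154777689). It had 5, 5 and 2 counts in siControl A, B and C, and 5, 1 and 3 counts in siDelta2-4 A, B and C. GAR1, which encodes a protein that binds dyskerin (chr4:109815510-109824740), had 3, 2 and 2 counts in the siControl group and 0, 1 and 4 in siDelta2-4. Neither gene reached the count needed for the test. From the pooled counts, 12 against 9, the ratio of siDelta2-4 to siControl for DKC1 was 0.648 with an exact 95% interval from 0.241 to 1.68. For GAR1, with 7 against 5 counts, it was 0.617 with an exact 95% interval from 0.155 to 2.26. These intervals cover counting error only, and PCR copies of a molecule were not separated. Any DKC1 ratio from 0.241 to 1.68 was compatible with these counts, so neither a fall nor a rise within that range was excluded at this depth.

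Not divided by transcript length, the siControl means were 466 CPM for NHP2, 159 for NOP10, 63.0 for PTGES3, 26.7 for RUVBL1 and 12.2 for RUVBL2. DKC1 had 3.86 and GAR1 2.25 CPM. ACD stood at 1.30 and TERF1 at 0.319 CPM. In siDelta2-4, the order of the first 7 was the same, with 453, 184, 78.6, 26.9, 14.1, 2.49 and 1.52 CPM. GAR1 and DKC1 cannot be ordered against each other beyond their counting error, nor can ACD and TERF1. The spread within groups did not bridge the gaps between NHP2, NOP10, PTGES3 and the RUVBL genes. RUVBL1 and RUVBL2 did not overlap in either group, with 17.241 against 15.325 CPM at the nearest in siControl. The 2 best counted genes were also the shortest, with mean counted lengths of 771 nt for NHP2 and 508 nt for NOP10, while the counted lengths of DKC1 and TERF1 were 2469 and 3298 nt. How far length alone set this order was not tested.

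**Figure D1:**
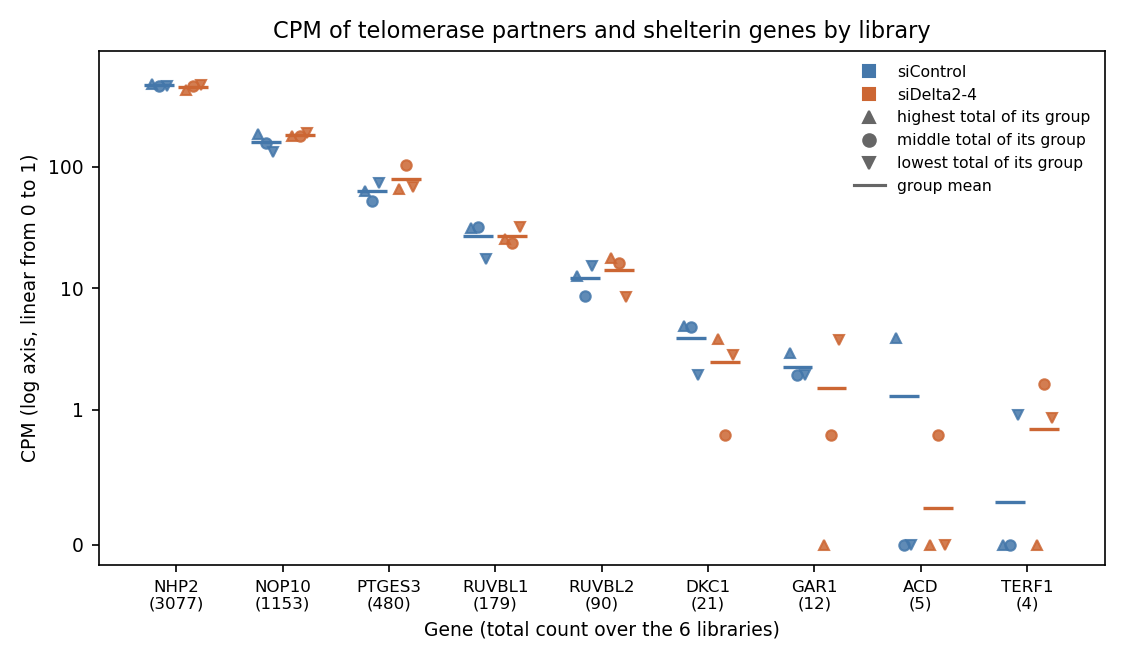
CPM of the 9 genes with rows in each of the 6 libraries, on a log axis that is linear from 0 to 1. Blue marks are siControl and orange marks are siDelta2-4, triangle up, circle and triangle down are libraries A, B and C, and bars are group means. NHP2 (426.64 to 476.75 CPM) and NOP10 (133.14 to 191.02 CPM) stand above all other genes, and the groups overlap for each of the 5 tested genes.

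RUVBL1 and RUVBL2 form the hexameric ATPase rings of the R2TP chaperone complex, which assembles box C/D and H/ACA particles and telomerase. RUVBL1 (chr3:128064778-128153914, minus strand) had 31.199, 31.646 and 17.241 CPM in siControl and 25.322, 23.564 and 31.836 CPM in siDelta2-4. siControl C was the lowest of the 6, and the others overlapped. The means were 26.7 ± 8.19 and 26.9 ± 4.36 CPM (SD, n = 3 per group), and the log2 fold change was 0.00 (SE 0.249, edgeR adjusted p = 0.998) with a 95% interval from 0.703-fold to 1.43-fold.

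RUVBL2 (chr19:48993562-49015970, plus strand) had 12.674, 8.6306 and 15.325 CPM in siControl and 17.649, 16.251 and 8.4273 CPM in siDelta2-4. The lowest and the highest of the 6 values were both in siDelta2-4. Its log2 fold change was 0.23 (SE 0.337, edgeR adjusted p = 0.734), and the interval from 0.729-fold to 1.90-fold was the widest of the 5 tested genes. The counts of both ATPases lay on 1 annotated transcript each, RUVBL1-201 and RUVBL2-206, of 8 and 12 annotated transcripts.

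PTGES3 encodes p23, a cochaperone that binds the closed form of HSP90 and also has prostaglandin E synthase activity. It lies at chr12:56663341-56688408 on the minus strand. In siControl it had 63.372, 51.784 and 73.753 CPM in A, B and C. In siDelta2-4 it had 65.224, 103.19 and 67.418 CPM. siDelta2-4 B stood alone at the top, and the other 2 lay within the siControl range. The means were 63.0 ± 11.0 and 78.6 ± 21.3 CPM (SD, n = 3 per group). The log2 fold change of 0.32 (SE 0.181) was the largest of the 5 and did not pass the test (edgeR adjusted p = 0.290), with a 95% interval from 0.967-fold to 1.62-fold. Without siDelta2-4 B the log2 fold change was 0.07 (edgeR adjusted p = 0.886). Without siControl C it was 0.43 and passed (edgeR adjusted p = 0.0797, range over the alternatives 0.0797 to 0.886). siDelta2-4 B also had the strongest correlation of length with deviation across genes, 0.362, and with the length trend removed the log2 fold change of PTGES3 was 0.15.

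The shelterin genes were near the limit of the table. TERF1, on chromosome 8, had 0, 0 and 1 counts in the siControl group and 0, 2 and 1 in siDelta2-4. ACD (chr16:67657512-67660810, minus strand) had 4, 0 and 0 counts in the siControl group and 0, 1 and 0 in siDelta2-4, so 4 of its 5 counts were in 1 library. The ratios of siDelta2-4 to siControl from pooled counts were 2.59 for TERF1 (exact 95% interval 0.208 to 136) and 0.216 for ACD (0.00439 to 2.18), and they give no direction for either gene. TERF2IP (chr16:75647773-75761872) has 5 annotated transcripts and had no row. Of the other 3 shelterin genes, TERF2 and TINF2 had rows and POT1 had none, and the 6 genes together had 15 counts, 4, 0 and 2 in siControl and 1, 6 and 2 in siDelta2-4. Every model in the table had at least 1 count in siDelta2-4, while 4526 of the 21472 models had 0 in siControl, so a transcript counted only in siControl has no row and a gene without a row has no known upper limit. The same selection applies to each gene at a few counts.

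The 9 genes had 21 transcript models, all of them annotated, and annotated models held 45.28% of all counts in the table. Every unannotated model in the table had at least 5 counts in each siDelta2-4 library. An unannotated form with fewer would have no row, and its reads would be absent from the gene's counts. Such forms could therefore be missed for any of the 9 genes. Of the annotated genes tested, 57.8% had annotated models alone. Of the 32 annotated transcripts of DKC1 and the 44 of ACD, 1 each was counted. NHP2 had rows for 5 of 7, NOP10 for 4 of 9 and PTGES3 for 4 of 7. NOP10-201 held 99.4% of the NOP10 counts. At the level of single models 6 were tested and 0 were called with edgeR, against 6.91% of the 6768 models tested. The 1 with an unadjusted p under 0.05 was PTGES3-201 (log2 fold change 0.40, SE 0.186, edgeR adjusted p = 0.253).

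Only NHP2 and PTGES3 had further models of 10 or more counts, and each of those lacked 1 coding exon of the main transcript. The 3 exons are shown because, apart from their ends, they separate the counted forms of these genes. The sequences were read from GRCh38, 5′ to 3′ on the minus strand on which both genes lie, with the exon in capitals and 20 bases of each neighbouring intron in lower case. NHP2 exon 3 has 106 nt, which leaves a remainder of 1 on division by 3, so joining exon 2 to exon 4 shifts the reading frame. PTGES3 exons 5 and 6 have 90 and 63 nt, and skipping either keeps the frame. All 3 begin after ag and end before gt, the usual splice sites.
NHP2 exon 3, absent from NHP2-202 (chr5:178150868-178151013, minus strand): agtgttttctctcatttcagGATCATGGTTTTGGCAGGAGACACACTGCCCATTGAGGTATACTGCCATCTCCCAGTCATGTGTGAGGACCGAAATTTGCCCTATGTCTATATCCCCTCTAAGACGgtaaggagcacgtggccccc
PTGES3 exon 5, absent from PTGES3-202 (chr12:56670255-56670384, minus strand): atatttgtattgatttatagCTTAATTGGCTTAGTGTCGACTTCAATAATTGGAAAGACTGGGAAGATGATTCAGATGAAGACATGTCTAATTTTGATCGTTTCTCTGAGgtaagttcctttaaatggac
PTGES3 exon 6, absent from PTGES3-204 (chr12:56666184-56666286, minus strand): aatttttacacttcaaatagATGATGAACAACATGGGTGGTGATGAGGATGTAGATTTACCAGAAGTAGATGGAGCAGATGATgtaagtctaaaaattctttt

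NHP2-201, with all 4 exons, held 94.3% of the NHP2 counts and NHP2-202, without exon 3, held 5.14%. NHP2-202 had 21, 19 and 34 counts in the siControl group and 31, 26 and 27 in siDelta2-4. As a share of NHP2 counts this was 4.29%, 3.94% and 7.08% in siControl and 5.58%, 4.61% and 5.34% in siDelta2-4. The highest share was in siControl C, and the siDelta2-4 values lay within the siControl range. The means were 5.11% ± 1.72 and 5.17% ± 0.503 (SD over 3 libraries each, two-sided exact permutation p = 1). In the test of transcript usage, NHP2 was the only gene of the group with 2 tested models and was not called (diffSpliceDGE adjusted p = 0.985), against 0.618% of the 1132 genes tested. NHP2-205 had 0 counts in every siControl library and 2, 1 and 1 in siDelta2-4, in a table whose models all had a count in siDelta2-4.

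PTGES3-201 held 90.6% of the PTGES3 counts. PTGES3-202, which lacks the GC-poor exon 5 (36.7% GC), had 7, 3 and 5 counts in the siControl group and 2, 7 and 6 in siDelta2-4, or 7.61% ± 2.78 and 5.40% ± 2.99 of the gene (SD over 3 libraries each, two-sided exact permutation p = 0.4). PTGES3-204, which lacks exon 6, had 13 counts in all and held 3.02% ± 1.43 and 2.04% ± 2.43 (SD over 3 libraries each, two-sided exact permutation p = 0.6). Over the 13 models whose share was compared, the adjusted exact p was 0.65 to 1. In siDelta2-4 B, where PTGES3 was highest, PTGES3-201 had 114 counts, PTGES3-202 had 7 and PTGES3-204 had 6, so the higher count lay mainly on the main transcript. With 30 and 13 counts over 6 libraries, a shift of a few percent in these shares was not detectable.

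**Figure D2:**
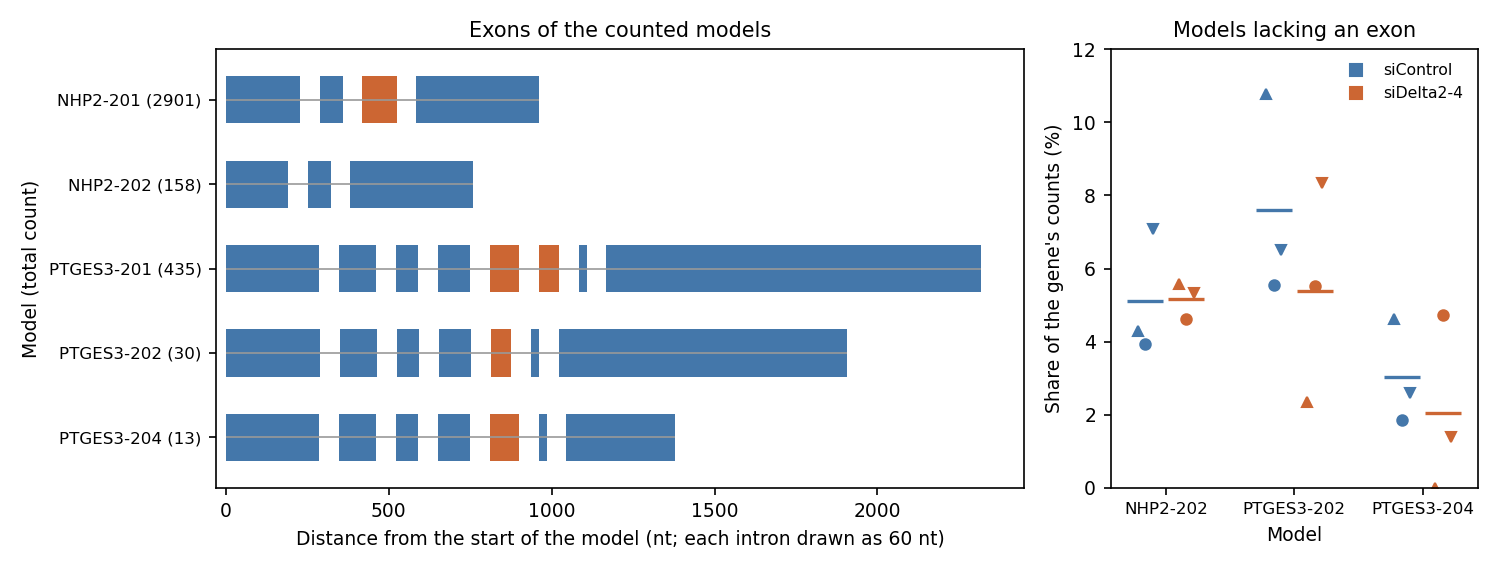
Left, exons of the counted NHP2 and PTGES3 models to scale in nt, with each intron drawn at a fixed 60 nt and in orange the exons that another counted model of the gene lacks. Right, the share of the gene's counts, in percent, on each model that lacks an exon in the 6 libraries (blue siControl, orange siDelta2-4, bars are group means, and triangle up, circle and triangle down are libraries A, B and C). NHP2-202 holds 3.94% to 7.08% and the groups overlap for all 3 models.

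The last part of NHP2 overlaps the last part of RMND5B, a gene for an E3 ubiquitin ligase component on the opposite strand (chr5:178130996-178150568), over 1106 bp. RMND5B had 476, 472 and 459 counts in the siControl group and 526, 486 and 463 in siDelta2-4, close to the NHP2 counts of 489, 482 and 480 and of 556, 564 and 506 in the same libraries. Of the RMND5B counts, 94.6% lay on an unannotated model of 4 exons and 5.27% on an unannotated model of 3 exons, and its 2 counted annotated transcripts had 2 counts each. For comparison, the 4-exon NHP2-201 and the 3-exon NHP2-202 held 94.3% and 5.14% of NHP2. The lengths were 1700 and 671 nt for the RMND5B models and 780 and 637 nt for the NHP2 models. The 1700 nt model was classed as an incomplete match to annotated RMND5B splicing. Whether reads were assigned a strand before counting is not given in the sources used here, and how reads divided between the overlapping genes was not tested. The RMND5B log2 fold change was -0.14, with an SE of 0.090 (edgeR adjusted p = 0.368).

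NHP2 counts per RMND5B count were 1.027, 1.021 and 1.046 in siControl and 1.057, 1.16 and 1.093 in siDelta2-4. The groups did not overlap, and the difference of the means, 1.03 ± 0.0131 against 1.10 ± 0.0523 (SD, n = 3 per group), gave the smallest p that the exact two-sided permutation test allows, 0.1, or 0.3 after adjustment over the 3 ratios. RUVBL1 overlaps SEC61A1, which encodes the channel of the ER translocon, over 6928 bp. SEC61A1 had 139 counts, 86.3% of them on an unannotated model of 11 exons, and RUVBL1-201 also has 11 exons. The RUVBL1 to SEC61A1 ratio ran from 0.9 to 1.833 in siControl and from 0.879 to 1.545 in siDelta2-4 (exact two-sided permutation p = 0.7, n = 3 each, 0.7 after adjustment over the 3 ratios). KARS1, a lysyl-tRNA synthetase gene with 71 counts, overlaps the start of TERF2IP over 871 bp.

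**Figure D3:**
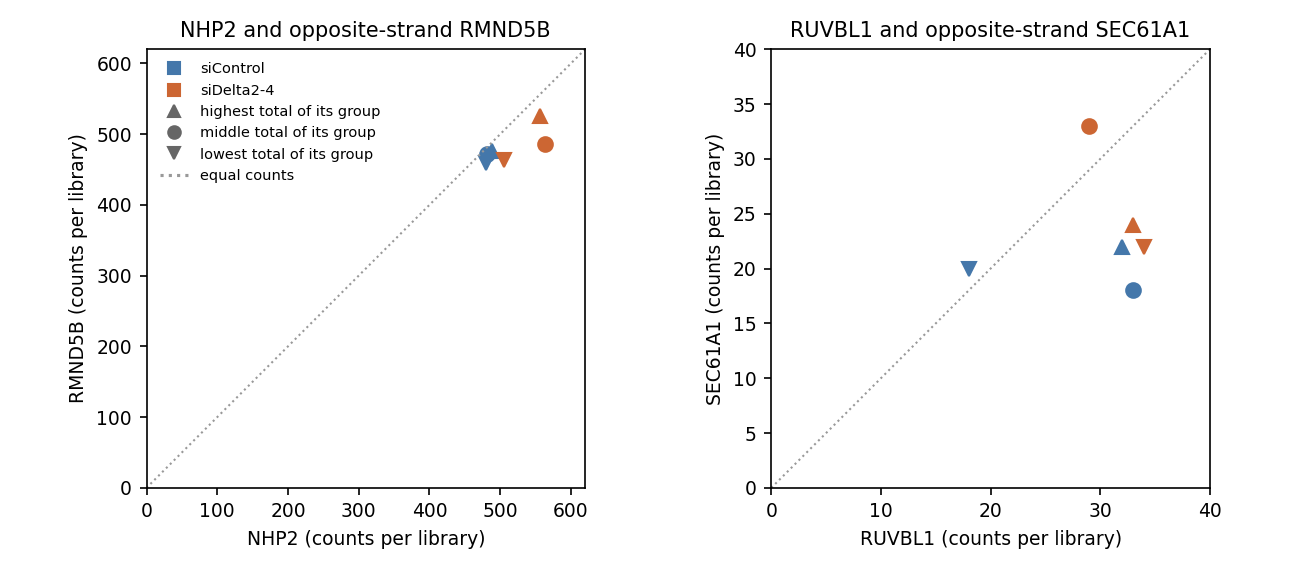
Counts per library of NHP2 against RMND5B (left) and of RUVBL1 against SEC61A1 (right), the genes on the opposite strand that they overlap. Blue is siControl, orange is siDelta2-4, triangle up, circle and triangle down are libraries A, B and C, and the dotted line marks equal counts. All 6 libraries have slightly more NHP2 than RMND5B counts, at ratios of 1.021 to 1.16.

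Copies of these genes elsewhere in the genome could draw reads. Of 16 annotated copies and paralogues of NHP2, PTGES3, RUVBL2 and TERF1, only the processed pseudogene NHP2P1 had a row, with 4 counts, and 15 had none.

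Around the 10 genes, 56 other telomerase and telomere genes were listed by role. Of these 37 had rows and 16 could be tested, with 2 called higher and 1 lower, 3 of 16 beside 13.0% of all genes tested. The median log2 fold change was 0.21 over the 5 tested partners, 0.13 over the other 16 and 0.03 over all genes tested. The 6 genes for H/ACA assembly and trafficking (among them NAF1, SHQ1 and WRAP53) all had rows but only 50 counts together, and none was tested. For TERT, TERC and TERC maturation, 1 of 7 genes had a row, with 10 counts. Of HSP90 and its cochaperones, 6 of 9 were tested, PTGES3 included, and none was called. A log2 fold change above 0 was found for 5 of the 6, beside 2094 of all 3888 genes tested. Of the R2TP group, 3 of 7 were tested and none was called.

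The 3 called genes encode abundant nucleic acid-binding proteins with many roles besides telomeres. NPM1 (chr5:171387116-171411810), the nucleolar protein nucleophosmin, had mean CPM of 879 ± 130 in siControl and 1154 ± 44.4 in siDelta2-4 (SD, n = 3 per group), with no overlap, as for 26.0% of all genes tested. Its log2 fold change was 0.39 (SE 0.091, edgeR adjusted p = 0.00763), and without siControl B it was 0.30 and no longer passed (edgeR adjusted p = 0.114, range over the alternatives 1.44e-06 to 0.114). HNRNPA1 (chr12:54280193-54287088), which binds telomeric repeats and their RNA, rose from 424 ± 38.4 to 504 ± 17.0 CPM (SD, n = 3 per group, log2 fold change 0.25, edgeR adjusted p = 0.0934). That call was lost under 13 of 16 alternatives (adjusted p 0.0187 to 0.662), among them the removal of each library but siControl C, and with the length trend removed its log2 fold change was 0.07. RPA3 (chr7:7636518-7718607), the small subunit of the single-strand binding complex RPA, fell from 289 ± 28.6 to 233 ± 22.4 CPM (SD, n = 3 per group, log2 fold change -0.31, edgeR adjusted p = 0.0753), and that call was lost under 8 of 15 alternatives (adjusted p 0.00287 to 0.325), again including the removal of each library but siControl C. With the length trend removed, the RPA3 log2 fold change was -0.48 (edgeR adjusted p = 0.0173). On known models alone RPA3 had too few counts to be tested, so its fall was not measured on annotated transcripts, and UMAD1 overlaps it. NPM1 has 49 annotated copies and HNRNPA1 has 74, and those with rows held 117 and 223 counts, so reads shared with copies are uncertain. None of the 5 tested partner genes was free of overlap between the groups.

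**Figure D4:**
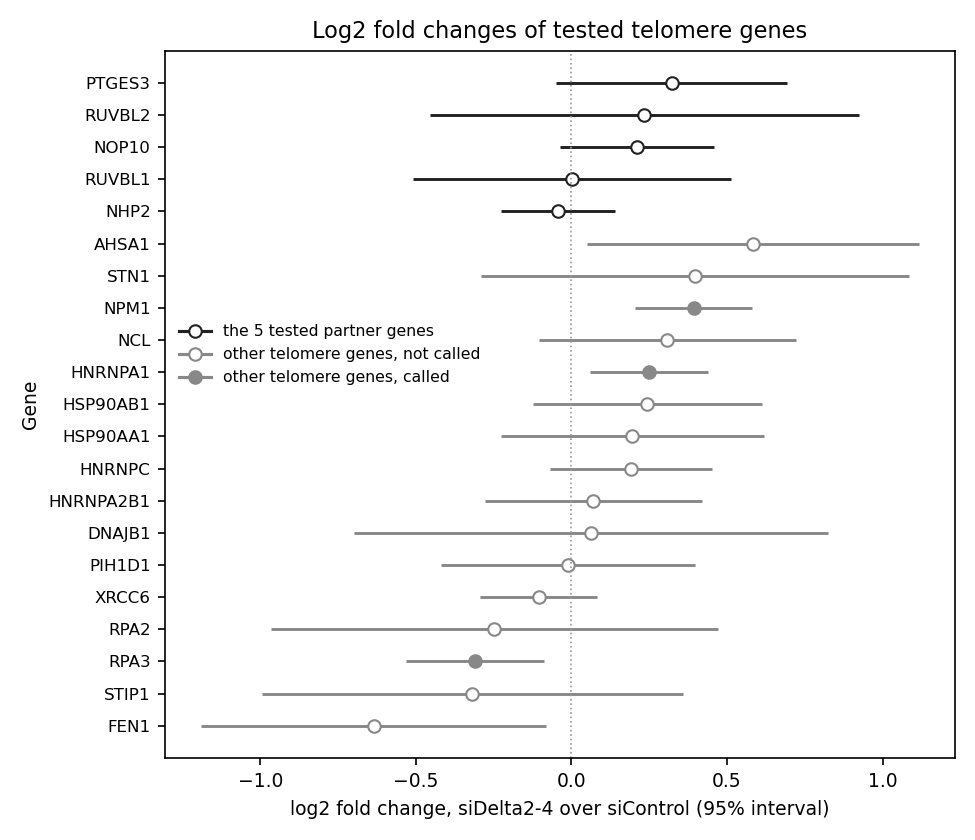
Log2 fold change of siDelta2-4 over siControl with its 95% interval for the 5 tested partner genes (black) and the 16 other tested telomere genes (grey), where filled circles are called at an adjusted p under 0.1. The intervals of all 5 partner genes include 0, that of NHP2 is the narrowest of the 5, and NPM1, HNRNPA1 and RPA3 are the filled circles.

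The log2 fold changes of the 5 genes were recomputed under other scalings, filters and tests and without each library. NHP2 stayed between -0.10 and 0.03 and RUVBL1 between -0.26 and 0.14, each with both signs. NOP10 ran from 0.08 to 0.33, RUVBL2 from 0.03 to 0.47 and PTGES3 from 0.07 to 0.45. With all 6 libraries, TMM and the default filter, no gene of the 5 had an unadjusted p under 0.05 with edgeR. The DESeq2 Wald test likewise gave none, with an adjusted p for 3 of them and 0 called. The 2 calls among the alternatives were NOP10 with the length trend removed and PTGES3 without siControl C.

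**Figure D5:**
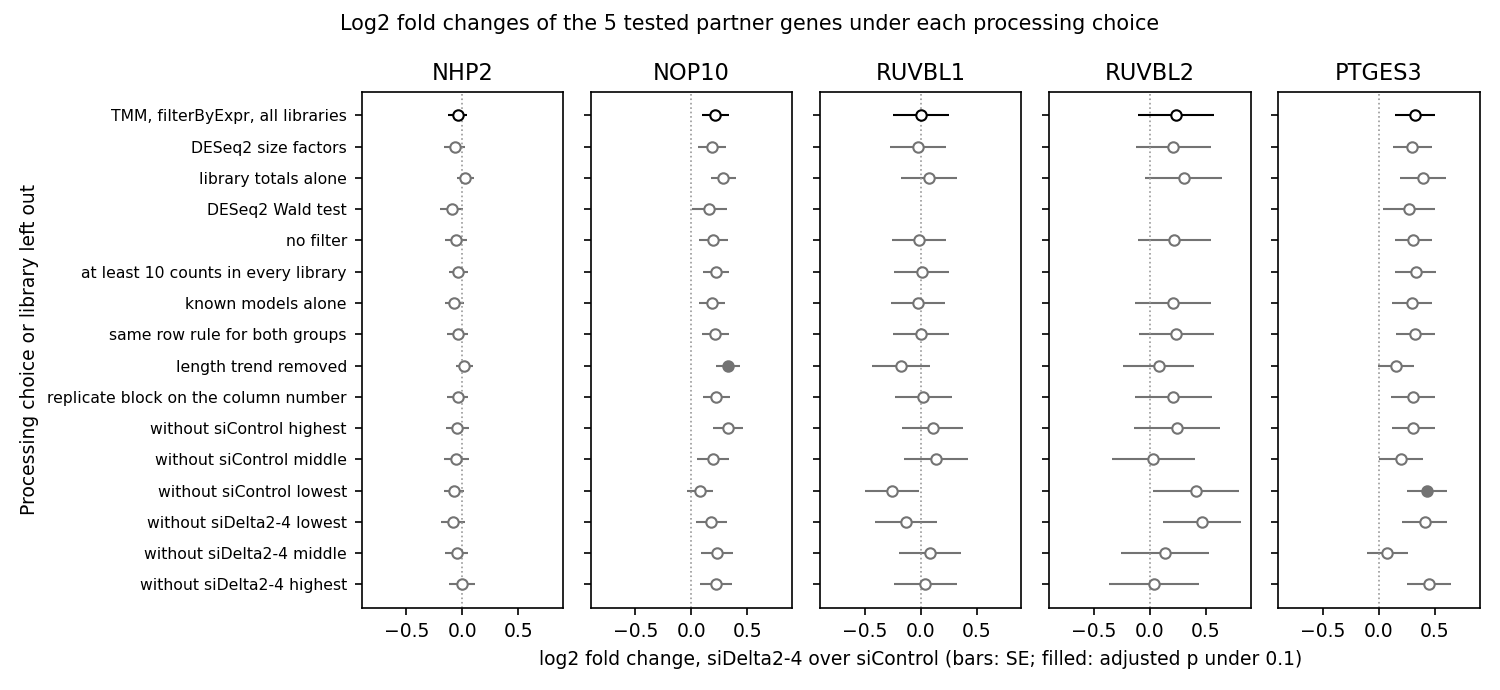
Log2 fold change of siDelta2-4 over siControl, with its SE, for the 5 tested partner genes (panels) under each processing choice or with 1 library left out (rows), where filled circles have an adjusted p under 0.1 and a missing circle means that the gene had no adjusted p there. NOP10 is filled with the length trend removed (0.33) and PTGES3 without siControl C (0.43).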

How the data were processed

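Poly(A) RNA of 6 Calu-6 libraries was sequenced as barcoded PCR-cDNA on a nanopore flow cell. The authors deposited an unnormalised table of whole-number read counts for each transcript model. Per the submitters' processing notes and the study's methods, alignment to GRCh38 was by minimap2 2.14, followed by sorting in SAMtools 1.13, correction in TranscriptClean, and annotation in TALON against Gencode 44 with unannotated models kept from 5 reads in 3 samples. The siRNA named in a column gave its group, and 0 columns were left out.

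Counts were summed per gene and filtered (filterByExpr), then tested in R 4.3.3 by edgeR 4.0.16 (TMM, quasi-likelihood fit of 2 groups, two-sided, Benjamini-Hochberg adjustment, called at an adjusted p under 0.1). The SE was obtained as log2 fold change over the root of F. Models were tested likewise and their usage with diffSpliceDGE. Ratios and shares were compared with exact permutation tests. DESeq2 1.42.0 was an alternative. The share on known models was 100% wherever a partner gene was counted, so it was not tested. Among pairs of libraries of 1 group, none was a duplicate, since at least 6974 genes differed in count. Scripts were tested on simulated data. Named were the 10 genes, called genes of the lists, opposite-strand genes and copies. The members and lists were chosen with earlier results of these data known.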

Additional observations from a re-analysis of the deposited data

How the results depend on the processing

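Of the partner genes 0 were called under the main settings and under every alternative except 2: with the length trend removed 1 was called (NOP10), and leaving out 1 library gave 0 to 1 (PTGES3, without siControl C). The single models of these genes gave 0 calls at either threshold and with the block, or 0 to 1 without 1 library, where PTGES3-201 was called (log2 fold change 0.53, edgeR adjusted p = 0.0551) without siControl C. Transcript usage of these genes gave 0 calls in the settings run for it, an adjusted p under 0.05, the block and each library left out. All genes called numbered 504, against 304 at an adjusted p under 0.05, 279 with the DESeq2 Wald test, 252 on known models alone and 299 with the column number as a replicate block. Leaving out 1 library gave 194 to 1041, the lowest without siDelta2-4 B and the highest without siControl C. The other telomere genes called numbered 3, against 1 at an adjusted p under 0.05, 1 on known models alone, 1 with the block and 0 to 4 without 1 library. Whether the column numbers pair the libraries was not settled. Deviations of same-numbered libraries correlated at 0.039, -0.136 and -0.084, with no value for differently numbered libraries to set beside them. The block changed no call of a partner gene. NPM1, HNRNPA1 and RPA3, the 3 called genes followed through the alternatives, kept their direction in each that tested them. RPA3 was not tested on known models alone. With 3 libraries a group, any difference within the interval given for a tested partner gene remained compatible with the data. DKC1, GAR1, TERF1 and ACD were limited by counts. The cause of these shifts was not tested.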
